A study of Mus musculus with 1470 samples.

Results

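Efferocytosis is the uptake of dying cells by living ones. The data describe 7 mouse genes of this process, Axl, Mertk, Timd4, Gas6, Pros1, Mfge8 and Cd5l, chosen by symbol among the 14915 gene rows of a single-cell table of liver cells. Dying cells expose phosphatidylserine, a lipid of the inner membrane leaflet, on their surface. Timd4 encodes TIM-4, a receptor that binds this lipid directly. Axl and Mertk encode receptor tyrosine kinases of the TAM family, which need a bridge to reach it. The bridges are the vitamin K-dependent proteins encoded by Gas6 and Pros1, and Mfge8 encodes a bridge to integrins. Cd5l encodes a secreted scavenger protein of tissue macrophages that binds debris of dead cells. In the liver, Kupffer cells, the resident macrophages of the sinusoid, are the best known phagocytes, and the endothelial cells lining the same sinusoid are scavengers as well.

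Non-parenchymal cells, the liver cells other than hepatocytes, were sorted from 3 mice on a normal diet (ND) and 3 on a high-fat diet (HFD) and sequenced by Smart-seq2, a full-length protocol without molecular identifiers. All 6 were male wild-type C57BL/6J mice, and the HFD mice took 60% of their calories from fat for 9 weeks from an age of 5 weeks. The mice are called ND1 to ND3 and HFD1 to HFD3 after their labels, and the cell names of each mouse began with a shared prefix, or with none in HFD2, so that mouse and whatever the prefix stands for cannot be told apart. Of the 1470 cells, 493 (33.5%) were called endothelial-like, 20.6% T-cell-like, 16.7% B-cell-like and 15.6% Kupffer-like, by clustering without the 7 genes and without other genes of the pathway. A further 49 cells were NK-like, 41 monocyte-derived or dendritic-like, 37 erythroid-like, 34 hepatocyte-like, 22 plasmacytoid dendritic-like and 17 neutrophil-like. In ND1 to ND3 and HFD1 to HFD3 the Kupffer-like cells numbered 40, 26, 37, 52, 35 and 39, the B-cell-like cells 52, 32, 38, 49, 53 and 21, and the T-cell-like cells 58, 54, 50, 49, 76 and 16.

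Values are RPKM, reads scaled to transcript length and to the mapped reads of the cell, so levels are per length and can be set side by side between genes. A level below is the mean of log2(RPKM + 1) over the cells of a class in 1 mouse, and a difference is on the same scale, which understates the change of low genes. The median estimated depth ranged from 86303 reads per cell in HFD2 to 198020 in HFD1. A single read of Mertk was worth 1.17 to 2.69 RPKM in the median cell of a mouse, and one of Cd5l 2.48 to 5.69 RPKM. Clec4f, a Kupffer cell lectin, was at 11.26 ± 1.05 (SD, n = 6 mice) in Kupffer-like cells and 4.05 ± 1.88 in endothelial-like cells. Stab2, a sinusoidal scavenger receptor, was at 8.90 ± 0.91 in endothelial-like and 4.32 ± 0.40 in Kupffer-like cells. Both genes were among the markers that named the classes, so these levels describe the classes and are no independent check of them. In each of the 6 mice some cells went against their class in a check on defining transcripts. In HFD2, 8 of 35 Kupffer-like and 22 of 76 T-cell-like cells failed it. In HFD3, 21 of 50 endothelial-like cells carried Kupffer cell transcripts, as did 24 (19.7%) in ND1 and 6 of 58 in ND3, against 1 in each of the other 3 mice. The cell name prefixes of HFD3, ND1 and ND3 held consecutive numbers, as did those of HFD1 and ND2, so this difference cannot be told apart from whatever the prefixes stand for. In HFD1, 4 of 9 monocyte-derived or dendritic-like cells carried endothelial transcripts. Several results below are given with and without the cells that failed the check. The others, among them the shares of summed RPKM, are for all cells.

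The 7 genes lie on 6 chromosomes of the mouse genome (GRCm38.p6). Axl (chr7:25756500-25788924) and Mfge8 (chr7:79133768-79149060) are on the minus strand, as is Gas6 (chr8:13465374-13494535). Mertk (chr2:128698915-128803162), Timd4 (chr11:46810786-46844333), Pros1 (chr16:62854307-62929346) and Cd5l (chr3:87357881-87371074) are on the plus strand. The bases in front of the annotated start are shown for a receptor and a secreted protein from each of both sets described below, Timd4 and Cd5l, which were highest in Kupffer-like cells, and Mertk and Gas6, which were highest in endothelial-like cells. The sequences are from RefSeq, 5′ to 3′ on the strand of the gene, and capitals mark matches to 8 motifs searched on both strands. The search window was the 250 bases before the start in the RefSeq promoter table, which lies 13 bases inside the annotated gene for Timd4 and farther inside it for Axl, and the bases inside a gene are not printed.

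Cd5l, chr3:87357631-87357880, plus strand: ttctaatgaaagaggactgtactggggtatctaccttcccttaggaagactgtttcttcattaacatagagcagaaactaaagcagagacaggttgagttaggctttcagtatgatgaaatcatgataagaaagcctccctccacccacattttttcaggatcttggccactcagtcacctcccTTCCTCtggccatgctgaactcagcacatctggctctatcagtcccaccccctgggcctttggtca
Timd4, chr11:46810549-46810785, plus strand: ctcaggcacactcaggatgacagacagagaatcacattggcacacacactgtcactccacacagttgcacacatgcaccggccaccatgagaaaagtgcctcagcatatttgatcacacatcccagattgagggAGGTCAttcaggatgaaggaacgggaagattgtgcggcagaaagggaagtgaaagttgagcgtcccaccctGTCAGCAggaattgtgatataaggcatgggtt
Mertk, chr2:128698665-128698914, plus strand: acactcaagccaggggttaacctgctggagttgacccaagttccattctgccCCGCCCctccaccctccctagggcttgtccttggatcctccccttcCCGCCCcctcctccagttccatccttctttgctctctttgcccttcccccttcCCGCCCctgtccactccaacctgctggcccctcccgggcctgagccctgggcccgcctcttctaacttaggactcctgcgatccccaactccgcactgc
Gas6, chr8:13494536-13494785, minus strand: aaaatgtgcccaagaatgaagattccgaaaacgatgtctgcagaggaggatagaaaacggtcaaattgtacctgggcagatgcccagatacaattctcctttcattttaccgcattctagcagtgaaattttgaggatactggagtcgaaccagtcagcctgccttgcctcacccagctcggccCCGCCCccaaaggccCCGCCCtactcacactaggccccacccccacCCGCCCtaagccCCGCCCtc

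The motifs were the GC box GGGCGG, the PU.1 core GAGGAA, the MAF half-site TGCTGAC, the nuclear receptor half-site AGGTCA, the AP-1 site TGANTCA, the GATA site AGATAA, the ETS core CCGGAA and the E-box CACGTG of the MiT/TFE factors. The window of Mertk held 3 GC boxes and that of Gas6 held 4, and neither window held a match to the other 7 motifs. The window of Cd5l held 1 PU.1 core, 66 bases before the start. The window of Timd4 held 1 MAF half-site, 32 bases before the annotated gene, and 1 nuclear receptor half-site farther upstream. Neither Cd5l nor Timd4 held a GC box, which 5 of the 7 windows and 32.9% of all 27025 windows of 250 bases held. In 4 of the 5 it lay before the annotated gene, and in Axl inside it. The PU.1 core occurred in 23.1% of all windows, the nuclear receptor half-site in 13.8% and the MAF half-site in 3.72%. Of the 7 genes, 0 held AP-1 (6.87% of windows), GATA (10.3%), ETS (12.2%) or E-box (6.05%) letters. Matches to different motifs did not overlap, but GC boxes 12 and 8 bases before the start of Pros1 shared bases with each other. A match describes letters, not binding.

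The 7 genes divided into 2 sets by the class in which they were highest. Axl, Timd4 and Cd5l were highest in Kupffer-like cells, and Mertk, Gas6, Pros1 and Mfge8 in endothelial-like cells. Kupffer-like cells made up 15.6% of the cells and held 94% of the summed RPKM of Timd4, 90.9% of Cd5l and 83.4% of Axl. Endothelial-like cells made up 33.5% and held 91.1% of Gas6, 89.2% of Pros1, 85.2% of Mfge8 and 73.9% of Mertk. With all mice pooled, Kupffer-like cells held a further 22.4% of Mertk, whereas the other 6 genes had at most 7.38% in the lesser of both classes. In single mice the lesser share reached 21.5% for Cd5l, 20.2% for Axl, 11.3% for Timd4, 19.2% for Pros1, 4.34% for Gas6 and 2.21% for Mfge8. For Mertk it ranged from 14.3% to 46.2%. These shares depend on how many cells of each class were sorted, and their range over mice was 73.6% to 94.7% for Axl in Kupffer-like and 50.1% to 83.2% for Mertk in endothelial-like cells.

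**Figure D1:**
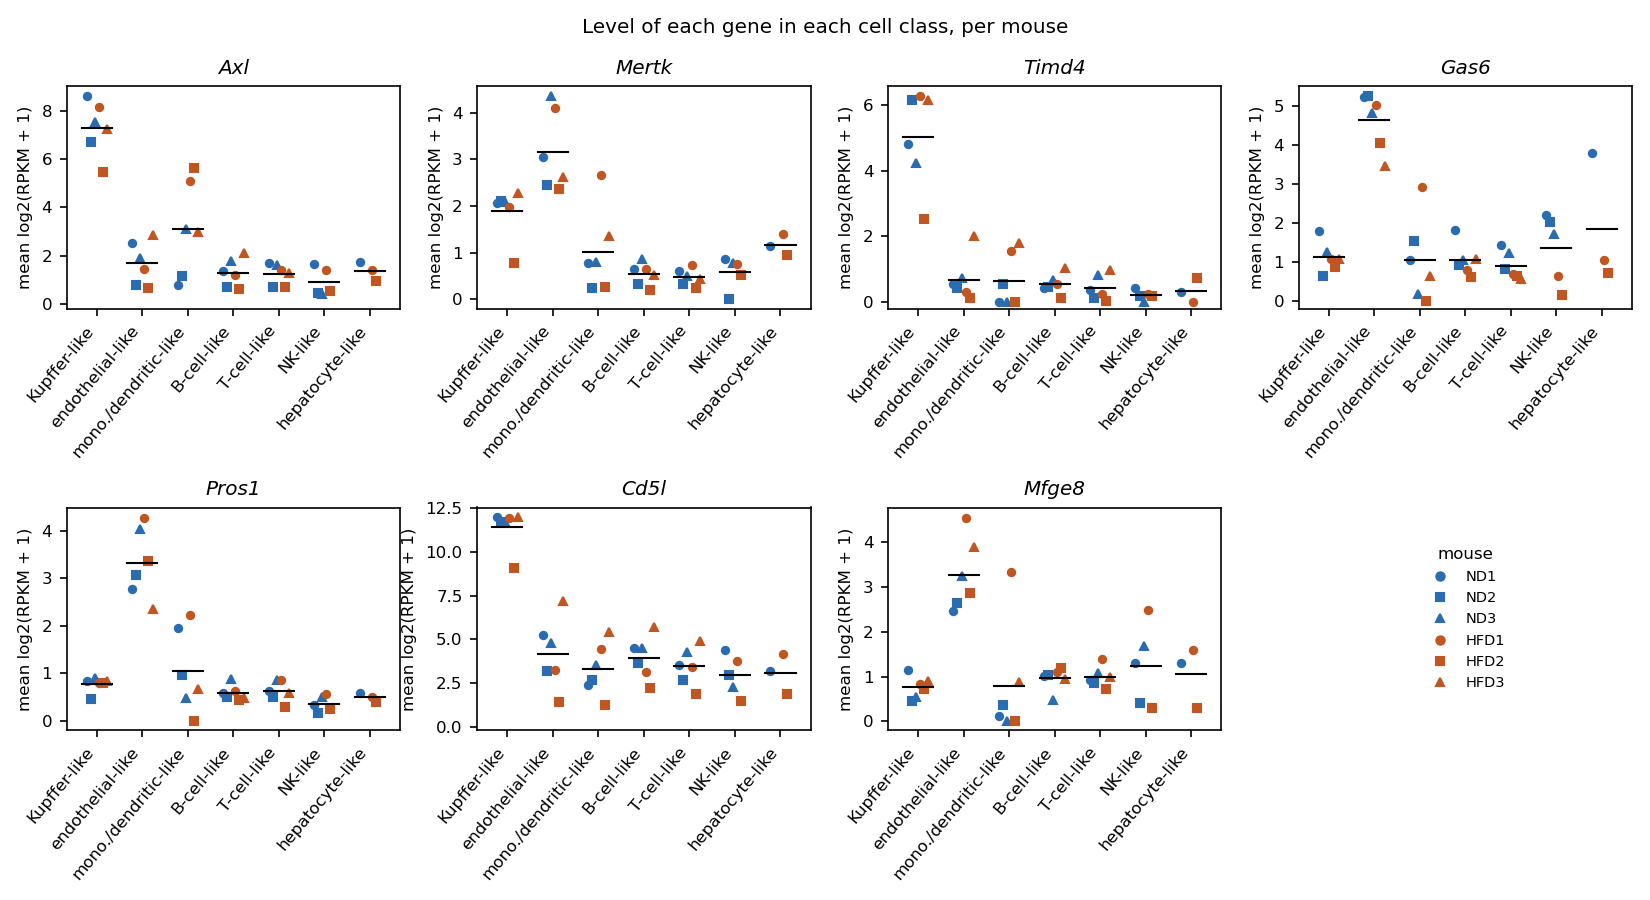
Mean log2(RPKM + 1) of each gene (vertical axes, scaled per gene) in 7 cell classes, with 1 point per mouse that had at least 5 cells of the class and a line at the mean over mice. Axl, Timd4 and Cd5l stand highest in Kupffer-like cells, and Mertk, Gas6, Pros1 and Mfge8 in endothelial-like cells.

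Axl was the more abundant TAM receptor of Kupffer-like cells. Its level there was 8.62, 6.73 and 7.52 in ND1 to ND3 and 8.17, 5.45 and 7.25 in HFD1 to HFD3. In endothelial-like cells of the same mice it was 2.51, 0.77, 1.91, 1.44, 0.67 and 2.87. The lowest Kupffer-like value, that of HFD2, was still above the highest endothelial-like one. Axl reached 10 RPKM, more than the worth of 1 read in the median cell of any mouse, in 86% of Kupffer-like cells (95% Wilson interval 80.9 to 89.9%). It did so in 77 of 493 endothelial-like cells, and in 39 of the 414 of these that passed the check on defining transcripts. Intervals here cover counting error alone.

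The second class for Axl was that of monocyte-derived or dendritic-like cells, with a level of 3.12 ± 1.98 (SD, n = 6 mice) against 7.29 ± 1.12 in Kupffer-like cells. Axl was uneven among these cells, since 13 of 41 reached 10 RPKM and the 5 highest held 76% of the class sum. Of the 13, all 13 had Ccr2 at 10 RPKM or more and 10 had Cx3cr1, a pair of chemokine receptors of monocytes and related cells, against 20 and 15 of the other 28 cells. Of 3 genes used to mark dendritic cells, Flt3 reached it in 2 of the 13 and 10 of the 28, Itgax in 5 and 11, and Zbtb46 in 3 and 5, so the 3 had no common direction. Spn reached it in 2 of the 13 and 16 of the 28. The Kupffer cell transcripts Clec4f and Vsig4 reached it in 6 and 4 of the 13 and in 11 and 10 of the 28, and the endothelial transcripts Kdr and Clec4g in 4 and 8 of the 13 and in 3 and 21 of the 28. Of the 13 cells, 9 were among the 36 that passed the check on defining transcripts. These 10 genes and the limit of 10 RPKM were chosen after values were seen. Below that class, Axl was at 1.90 in erythroid-like, 1.70 in endothelial-like, 1.36 in hepatocyte-like, 1.29 in B-cell-like and 1.23 in T-cell-like cells. B-cell-like and T-cell-like cells did not differ beyond their spread over 6 mice (p = 0.844, exact two-sided test flipping the signs of the mice). The other neighbours shared 5 or 3 mice, which allow no p below 0.0625 or 0.25 in this test, so it could not resolve those pairs.

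Mertk, the other TAM receptor, was an endothelial and Kupffer transcript of modest level. In endothelial-like cells it was at 3.05, 2.45 and 4.35 in ND1 to ND3 and 4.10, 2.37 and 2.63 in HFD1 to HFD3. In Kupffer-like cells it was at 2.07, 2.11 and 2.09 in the ND mice and 1.98, 0.77 and 2.27 in the HFD mice. Each mouse was higher in endothelial-like cells, and the narrowest gap was in ND2. The 2 classes differed in how the transcript was spread over cells. Mertk reached 10 RPKM in 44.4% of endothelial-like cells (40.1 to 48.8%) and in 47 Kupffer-like cells (20.5%, 15.8 to 26.2%). The few Kupffer-like cells that held it held much, the 5 highest making up 34.2% of the class sum and the highest reaching 1197 RPKM. The mean RPKM of Mertk in Kupffer-like cells was a median 80.3% of that in endothelial-like cells, with ratios of 0.34 in HFD1 to 1.18 in HFD3. In the same cells the endothelial transcripts Kdr, Stab2 and Clec4g were at 2.08%, 4.71% and 1.23%, and Mertk was above all 3 in 6 of 6 mice. In cells that passed the check on defining transcripts its ratio was 67.9%. It was low in B-cell-like (0.54) and T-cell-like cells (0.48), where 2 cells each (0.816% and 0.66%) reached 10 RPKM. Tyro3, the third TAM receptor, had levels between 0.00 and 0.15 in the 9 classes with at least 3 mice.

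Timd4 was the receptor with the largest share of its RPKM in 1 class. In Kupffer-like cells it was at 4.81, 6.14 and 4.23 in ND1 to ND3 and at 6.26, 2.52 and 6.16 in HFD1 to HFD3. Its next class, endothelial-like cells, had levels of 0.12 to 0.72 in 5 mice and 2.01 in HFD3. The groups did not overlap, and the low Kupffer-like value was again that of HFD2. Timd4 was at 10 RPKM or more in 62.9% of Kupffer-like cells (56.5 to 68.9%), from 31.4% in HFD2 to 76.9% in HFD3. Of the 28 endothelial-like cells that reached it, 6 were among the 414 with the defining transcripts of endothelial cells. From endothelial-like cells downward, 0 of the 3 neighbouring pairs of classes that shared 6 mice differed beyond their spread (exact sign flips, p from 0.281 to 0.875), and the 4 other pairs shared 5 or 3 mice, too few to reach 0.05.

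Cd5l was the most abundant of the 7 transcripts. Its Kupffer-like level was 12.01, 11.71 and 11.72 in the ND mice and 11.94, 9.11 and 11.98 in the HFD mice. In 5 of 6 mice all Kupffer-like cells held it at 10 RPKM or more, and in HFD2 25 of 35 did. Without the cells that failed the check on defining transcripts the level in HFD2 was 11.18, against 11.71 to 12.09 in the other mice. Endothelial-like levels ran from 1.42 in HFD2 to 7.18 in HFD3, and were highest in HFD3 and ND1, where the most endothelial-like cells carried Kupffer cell transcripts. Cd5l was listed above 0 in every class, and the comparison with Kupffer cell transcripts below bears on those low levels.

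Gas6 was the leading bridge transcript of endothelial-like cells. Its level was 5.25, 5.26 and 4.84 in ND1 to ND3 and 5.03, 4.06 and 3.48 in HFD1 to HFD3. In Kupffer-like cells it lay between 0.63 and 1.81. The classes did not overlap. It was at 10 RPKM or more in 290 of 493 endothelial-like cells (58.8%, 54.4 to 63.1%), in 22 Kupffer-like cells (9.61%) and in 13 B-cell-like cells (5.31%). In hepatocyte-like cells Gas6 rested on few cells, with 93% of the class sum in the 5 highest of 34. The next class, erythroid-like cells at 1.95 ± 1.28 (SD, n = 5 mice), was lower in 5 of 5 mice (exact sign flips, p = 0.0625, the smallest that 5 mice allow), and there 99% of the sum was in 5 of 37 cells.

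Pros1, which encodes protein S, the anticoagulant cofactor and TAM ligand, followed the same pattern at a lower level. Endothelial-like cells were at 2.78, 3.08 and 4.05 in the ND mice and 4.28, 3.36 and 2.36 in the HFD mice. Kupffer-like cells were at 0.45 to 0.90. The classes did not overlap. Pros1 was at 10 RPKM or more in 45.6% of endothelial-like cells (41.3 to 50.1%) and in 17 Kupffer-like cells (7.42%). Hepatocytes are a known source of protein S, yet the 34 hepatocyte-like cells were at 0.50 ± 0.10 (SD, n = 3 mice), with 1 cell at 10 RPKM or more. Those cells were at 12.79 for Alb (albumin) and 14.13 for Fabp1, a fatty acid carrier, but at 1.26 ± 0.22 for F2 (prothrombin), another clotting factor of hepatocytes, which was at 1.33 ± 0.41 in Kupffer-like cells. Hepatocytes had been pelleted away before sorting, and their level of Pros1 was not measured here beyond these cells. Alb, Fabp1 and F2 were chosen after values were seen.

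Mfge8 was at 2.47, 2.64 and 3.25 in endothelial-like cells of ND1 to ND3 and at 4.55, 2.87 and 3.90 in those of HFD1 to HFD3. Kupffer-like cells were at 0.46 to 1.14, with a mean of 0.77 beside 0.78 in monocyte-derived or dendritic-like cells, the lowest of the 9 classes with at least 3 mice. Mfge8 reached 10 RPKM in 39.6% of endothelial-like cells (35.3 to 43.9%). It was also found at high values in a few lymphocytes, whereas the highest Gas6 value was 26.4 RPKM in B-cell-like and 30.1 RPKM in T-cell-like cells. In B-cell-like cells 19 (7.76%) reached 10 RPKM and the 5 highest held 87.8% of the class sum, the highest at 1824 RPKM. In T-cell-like cells 20 (6.6%) reached it and the 5 highest held 65.4%.

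Kupffer-like and endothelial-like cells of the same mouse were compared for the size of the differences. The Kupffer set (Axl, Timd4 and Cd5l) and the endothelial set (Mertk, Gas6, Pros1 and Mfge8) were formed from these same means, so the counts that follow restate that division and are given as a description. In limma on the means per mouse, with the mouse as a block, 7 of 7 genes were called at an adjusted p under 0.05, 3 higher and 4 lower in Kupffer-like cells. Of all 4717 genes tested, 54.4% were called, 17.6% higher and 36.8% lower, and the median difference of all genes was -0.29, so a call by itself was common. For 7 of 7 genes the 6 values of both classes did not overlap, against 20.8% of all genes. Timd4, at 0.69 in endothelial-like cells, and Pros1 and Mfge8, both at 0.77 in Kupffer-like cells, passed the filter on low values, a mean of 1 in either class, through the class where they were high. The differences were 7.23 ± 0.40 for Cd5l, 5.59 ± 0.28 for Axl and 4.33 ± 0.38 for Timd4 (SE, adjusted p from limma of 9.72e-09, 6.4e-09 and 5.28e-07). They were -3.53 ± 0.25 for Gas6, -2.55 ± 0.25 for Pros1, -2.51 ± 0.27 for Mfge8 and -1.28 ± 0.27 for Mertk (adjusted p from limma of 8.15e-08, 1.73e-06, 3.52e-06 and 0.00143). Each of the 7 had the same sign in 6 of 6 mice, with an exact two-sided sign-flip p of 0.0312, the smallest that 6 mice allow. In the cells that passed the check on defining transcripts the mean differences were 8.16 for Cd5l, 6.18 for Axl and 4.79 for Timd4. For Gas6, Pros1, Mfge8 and Mertk they were -3.94, -2.83, -2.84 and -1.50, and all 7 kept their sign in 6 of 6 mice. For Mertk the result depended on the scale. When RPKM was averaged over cells before the logarithm its difference was -0.49, with an adjusted p of 0.318 by limma.

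**Figure D2:**
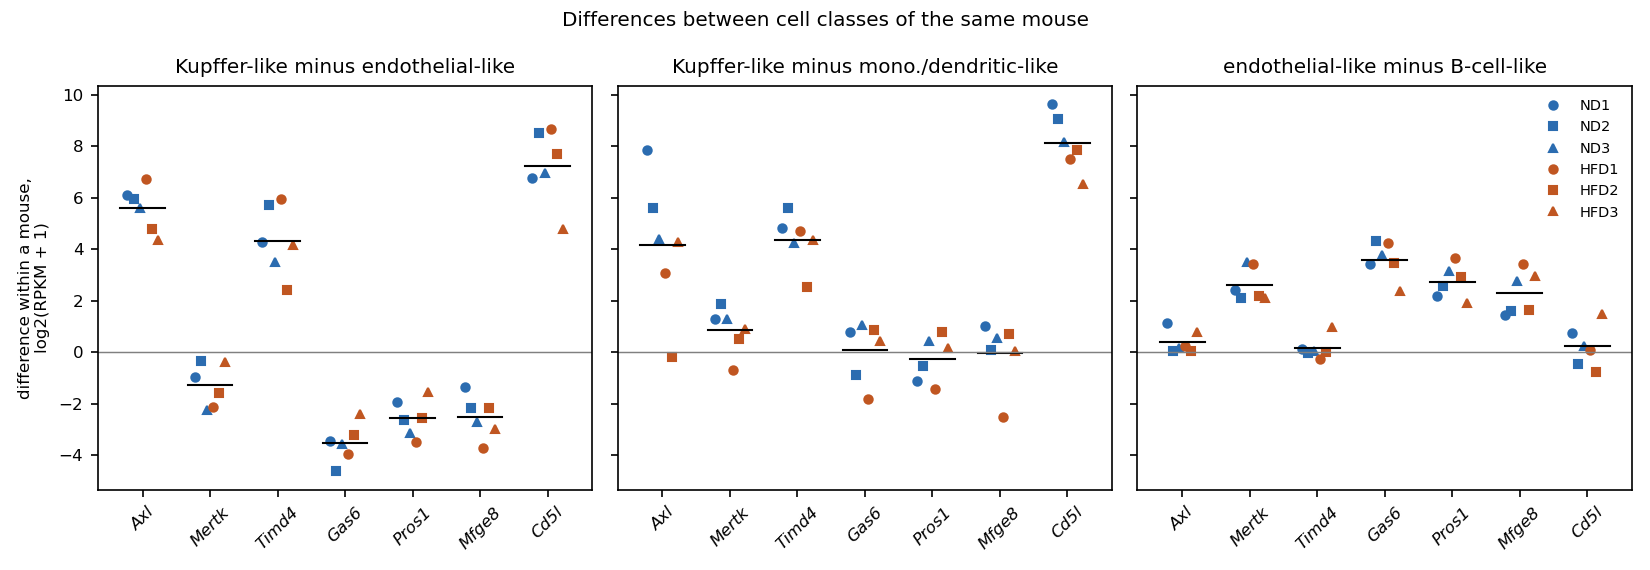
Difference in mean log2(RPKM + 1) between a pair of classes of the same mouse (vertical axis), with 1 point per mouse and a line at the mean, for 3 pairs of classes. In the left panel all 6 mice of each gene lie on the same side of 0, and in the middle panel Axl of HFD2 lies at -0.17.

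Kupffer-like cells were also compared with monocyte-derived or dendritic-like cells, the other myeloid class. Of the 6 genes that passed the filter on low values, 3 were called, all higher in Kupffer-like cells, and they are the genes of the Kupffer set. Timd4, at 0.65 in the other class, passed the filter through Kupffer-like cells alone, and nothing is read from the count. Of all 5782 genes tested 39.2% were called, with 3.82% higher and 35.3% lower, and the median difference of all genes was -0.89. The classes did not overlap for 2 of the 6, Cd5l and Timd4, against 11.9% of all genes. Cd5l differed by 8.12 ± 0.46 and Timd4 by 4.37 ± 0.46 (SE, adjusted p from limma of 8.14e-15 and 9.04e-09), in 6 of 6 mice. Axl differed by 4.17 ± 0.61 (adjusted p from limma of 3.62e-06). Its differences were 7.85, 5.59 and 4.40 in the ND mice and 3.06, -0.17 and 4.28 in the HFD mice, so that with all cells HFD2 had no gap, and the exact sign-flip p was 0.0625. In the cells that passed the check on defining transcripts the Axl differences were 7.86, 5.59 and 4.40 in the ND mice and 4.25, 0.95 and 4.36 in the HFD mice, positive in 6 of 6 (mean 4.57, exact sign-flip p = 0.0312), with HFD2 still the smallest. The Axl call was lost with each gene's own spread alone (adjusted p 0.0605 by limma), without the filter on low values (0.0833) and with RPKM averaged before the logarithm (0.0607). Mertk was higher by 0.87 ± 0.45 without being called (adjusted p from limma of 0.112). It was called with a difference of 1.19 in the cells that passed the check on defining transcripts (adjusted p from limma of 0.0264). Gas6 and Pros1 differed by 0.07 (95% interval -0.88 to 1.02) and -0.28 (-1.19 to 0.63), and Mfge8 did not pass the filter.

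Endothelial-like cells were compared with B-cell-like cells, a lymphocyte class outside the phagocytes of the sinusoid. Of 6 genes that passed the filter, 4 were called, all higher in endothelial-like cells, and they are the genes of the endothelial set. Mertk, Pros1 and Mfge8, at 0.54, 0.58 and 0.96 in B-cell-like cells, passed the filter through endothelial-like cells alone, and nothing is read from the count. Among all 4926 genes 52.7% were called, 33.3% of them higher and 19.5% lower as shares of the genes tested, and the median difference was 0.17. The same 4 did not overlap between the classes, against 23.8% of all genes. Gas6 was higher by 3.60 ± 0.25, Pros1 by 2.74 ± 0.24, Mertk by 2.62 ± 0.24 and Mfge8 by 2.32 ± 0.26 (SE, adjusted p from limma between 1.14e-09 and 7.9e-07), each in 6 of 6 mice. Axl differed by 0.41 (95% interval -0.04 to 0.86) and Cd5l by 0.23 (-0.32 to 0.77), and neither was called. Axl was higher in 6 of 6 mice, by 0.05 to 1.13 (exact sign flips, p = 0.0312), with the widest gaps in ND1 and HFD3, where most endothelial-like cells with Kupffer cell transcripts were found. In the cells that passed the check on defining transcripts the Axl differences were 0.38, 0.11 and -0.10 in the ND mice and 0.27, 0.07 and -0.48 in the HFD mice, a mean of 0.04 (exact sign flips, p = 0.781). Cd5l was there at a mean difference of -0.27, lower in 6 of 6 mice (exact sign flips, p = 0.0312) but not called (adjusted p from limma of 0.278). With all cells its difference was 0.23, higher in 4 of 6 mice (exact sign flips, p = 0.562). Timd4 did not pass the filter.

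Low levels outside the leading class were set beside transcripts that such a class should lack. In B-cell-like cells Cd5l, Timd4 and Axl had a median 0.668%, 0.593% and 0.414% of their mean RPKM in Kupffer-like cells of the same mouse. The Kupffer cell transcripts Clec4f, Vsig4 and C1qa were at 0.572%, 0.572% and 0.492% there. For Cd5l this ratio ranged from 0.203% in HFD2 to 1.21% in HFD3, and those of Clec4f and C1qa were also lowest and highest in these mice. In T-cell-like cells Cd5l was at 0.379% and Timd4 at 0.229%, close to the 0.343% to 0.347% of the Kupffer cell transcripts, while Axl was at 1.49%, and at 1.3% in the cells that passed the check. Axl exceeded each of the 3 transcripts in 5 of 6 T-cell-like libraries and was below them in HFD3, with 17 cells (5.61%) at 10 RPKM or more and 56.5% of the class sum in 5 cells.

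In monocyte-derived or dendritic-like cells Cd5l was at a median 0.239% and Timd4 at 0.137% of the Kupffer-like mean, and Clec4f, Vsig4 and C1qa at 0.227%, 0.276% and 0.676%. Axl was at 14% there, with 0.149%, 7.06% and 35.7% in the ND mice and 20.9%, 62.9% and 4.66% in the HFD mice. In 5 of 6 mice it was above the ratio of all 3 Kupffer cell transcripts, and in ND1 it was at or below it. In endothelial-like cells Axl was at a median 1.72% against 1.54% to 2.77% for the 3 Kupffer cell transcripts. In those that passed the check it was at 1.06% against 0.456% to 0.553%. The check leaves out endothelial-like cells high in these same 3 transcripts, so nothing is read from that gap.

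The same was done for the endothelial set. In B-cell-like cells Gas6 was at 1.14%, Mertk at 1.41% and Pros1 at 1.52% of the endothelial-like mean, beside 0.918%, 1.27% and 1.3% for Kdr, Stab2 and Clec4g. Mfge8 was at 5.77%, with 44.8%, 46% and 1.35% in the ND mice and 6.33%, 5.21% and 1.53% in the HFD mice. In T-cell-like cells Mfge8 was at 9.78% and Pros1 at 2.68% beside 0.546% to 0.762%, and Gas6 at 0.779%. In Kupffer-like cells Pros1 was at a median of 13.7%, from 2.58% in HFD1 to 34.3% in HFD3, and 5 cells held 71.3% of its summed RPKM. It was above Kdr, Stab2 and Clec4g in 4 of 6 mice and below Stab2 in ND2 and HFD1. Gas6 and Mfge8 were at 3.24% and 1.28%, within the range of the 3 transcripts of 1.23% to 4.71%. Monocyte-derived or dendritic-like cells of HFD1 had Mfge8 at 48.2% and Gas6 at 23.2%, with Kdr, Stab2 and Clec4g at 12.8% to 19.9%. All 4 cells of that class with Mfge8 at 10 RPKM or more failed the check on defining transcripts.

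**Figure D3:**
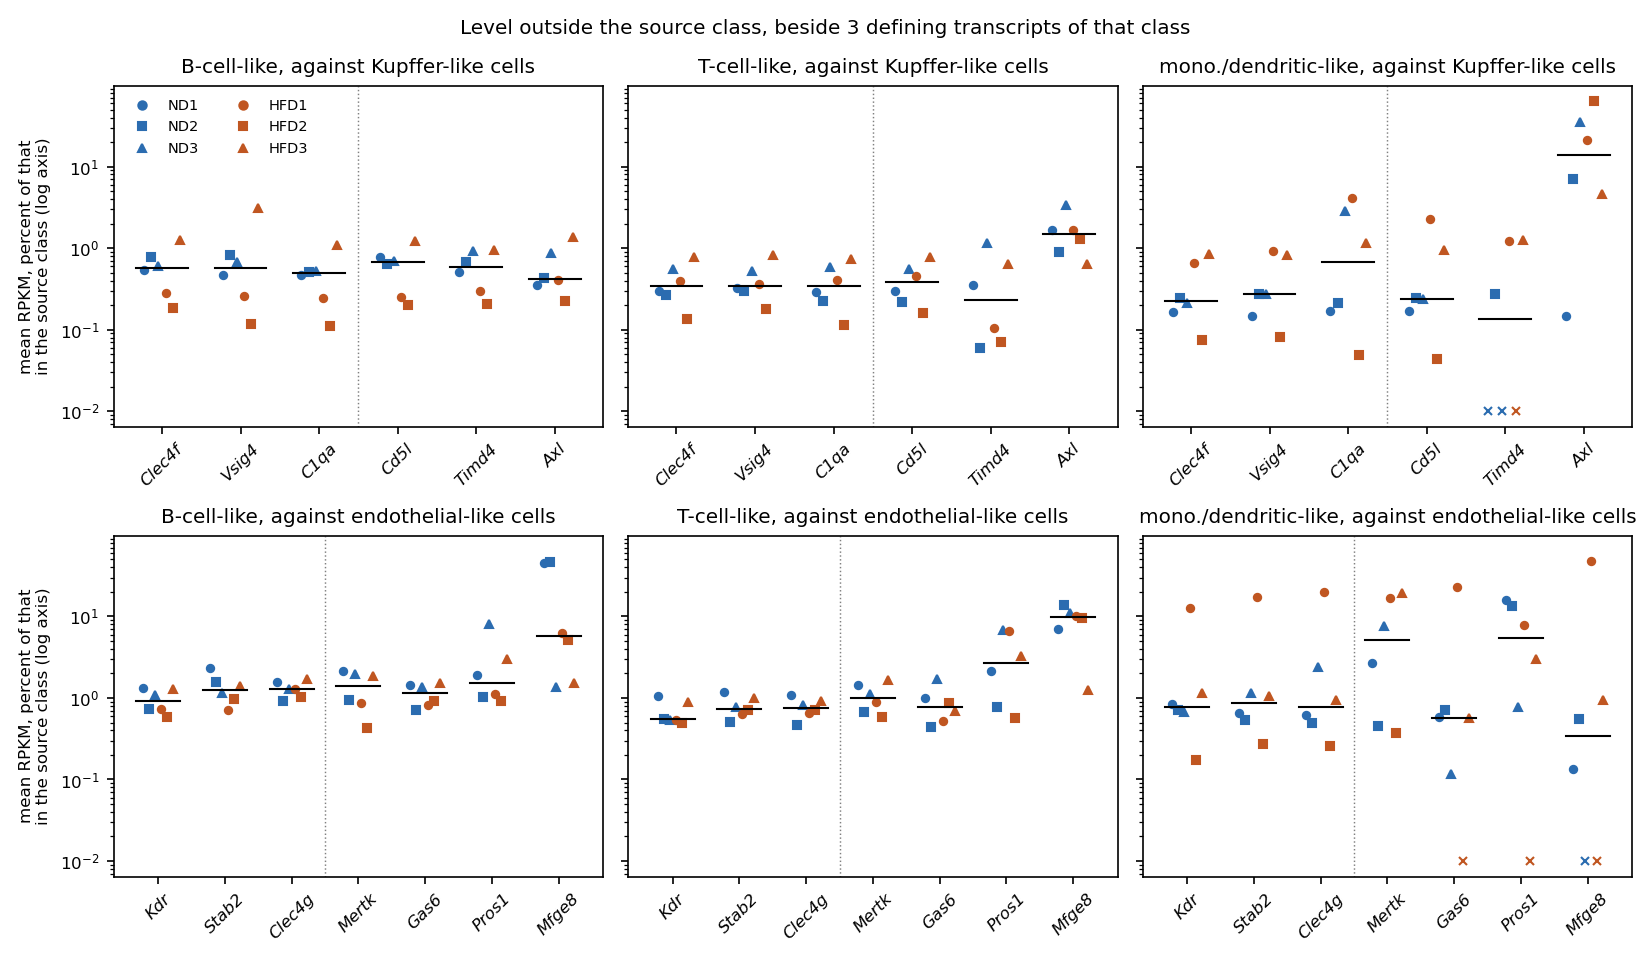
Mean RPKM in B-cell-like, T-cell-like and monocyte-derived or dendritic-like cells as a percent of that in the source class of the same mouse (log axis), for 3 defining transcripts of the source class (left of the dotted line) and for the genes described (right). Points are mice, lines are medians and crosses at the bottom are values of 0; Axl at a median 14% in monocyte-derived or dendritic-like cells and Mfge8 at 5.77% and 9.78% in B-cell-like and T-cell-like cells stand above the defining transcripts.

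Within Kupffer-like cells the 3 leading genes were mostly found together, with 66.4% of cells at 1 RPKM or more for Axl, Timd4 and Cd5l. The share ran from 25.7% in HFD2 to 89.7% in the highest mouse, and cells with all 3 had a median of 2480 genes detected against 2023 for cells with 2 of them. In the 72 Kupffer-like cells with Timd4 below 1 RPKM the mean level of Axl was 6.29 and of Cd5l 10.01, against 7.92 and 12.13 in the other Kupffer-like cells. Of those 72 cells 24 came from HFD2, where the defining Kupffer cell transcripts were also lower in the cells without Timd4, at 8.03 against 11.28. In ND3, which had 17 such cells, Axl was at 7.35 against 7.67 and Cd5l at 11.21 against 12.15. Mertk showed no common direction, being higher without Timd4 in ND1 (2.93 against 1.71) and lower in ND2 (0.31 against 2.65). Across Kupffer-like cells the Spearman correlation of Axl with Mertk ranged from -0.31 to 0.02 over mice, as a description across cells.

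Within endothelial-like cells 108 of 493 (21.9%) held Mertk, Gas6, Pros1 and Mfge8 together at 1 RPKM or more, and 30 (6.09%) held none of the 4. The former had a median of 3230 genes detected and the latter 1940. Across the endothelial-like cells of a mouse the Spearman correlation of Mertk was -0.08 to 0.36 with Gas6, 0.10 to 0.30 with Pros1 and -0.08 to 0.31 with Mfge8. Of the endothelial-like cells with Mertk at 1 RPKM or more, 80.3% held Gas6, against 62.2% of the 209 cells without it, and this share was higher in 6 of 6 mice. Pros1 was held by 68% of cells with Mertk and 45.9% of those without, also in 6 of 6 mice. The part of depth in these shares was not tested.

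Endothelial cells differ along the sinusoid from the portal tract to the central vein, and the 4 genes were followed along this axis. Each endothelial-like cell was scored by 8 genes of the central end, among them Rspo3, Wnt2 and Kit, less 8 of the portal end, among them Efnb2, Dll4 and Ltbp4. The cells of each mouse were split by this score into 3 parts of about equal size, of which the lowest is called the portal part and the highest the central part. Gas6 was at 4.49, 4.10 and 4.04 in the portal part of ND1 to ND3 and at 4.0, 2.70 and 1.87 in that of HFD1 to HFD3. In the central part it was at 6.14, 7.11, 7.15, 6.83, 5.26 and 5.36. Gas6 was higher in the central part in 6 of 6 mice, by 1.65 to 3.49, and the parts did not overlap over the mice.

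In the cells that passed the check on defining transcripts the Gas6 values were 2.87 or more in the portal part of 5 mice and 0.84 in that of HFD3, and 5.26 to 7.59 in the central part. Its Spearman correlation with the score was 0.21 to 0.39 over mice, and that with the number of genes detected was -0.01 to 0.23. Mfge8 was higher in the central part in 5 of 6 mice, with means of 2.90 ± 1.39 in the portal and 4.32 ± 0.94 in the central part (SD, n = 6 mice), and its correlation was -0.03 to 0.31 with the score and 0.08 to 0.38 with the number of genes detected. Mertk (3.47 ± 0.98 and 3.52 ± 0.90) and Pros1 (3.36 ± 0.79 and 3.51 ± 0.67) were at similar means in both parts. The median number of genes was 1782 to 3367 in the portal part and 1936 to 3261 in the central part. This comparison is a description over cells, with no test.

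**Figure D4:**
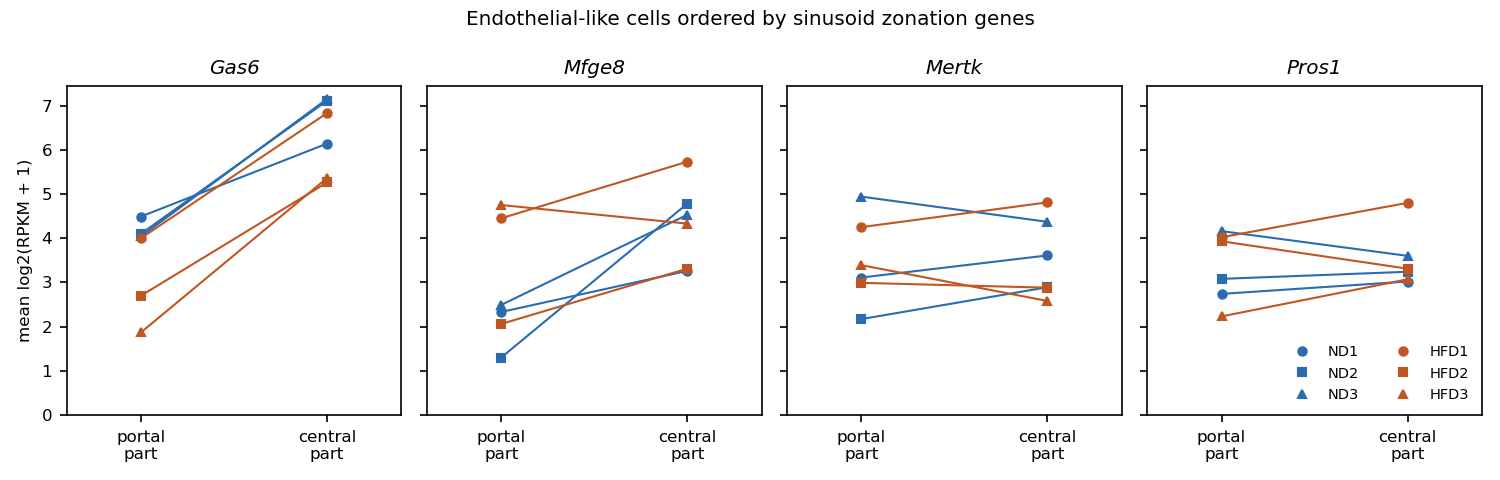
Mean log2(RPKM + 1) of Gas6, Mfge8, Mertk and Pros1 in the portal and the central part of the endothelial-like cells, those with the lowest and the highest score, with 1 line per mouse. The Gas6 lines rise in all 6 mice, by 1.65 to 3.49, while those of Mertk and Pros1 cross.

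Diets were compared class by class over 3 mice against 3, which allows no p below 0.1 in an exact two-sided permutation test. In limma 0 of all genes were called in each of the 5 classes compared. In Kupffer-like cells 0% of 3257 genes and 0 of 5 of the genes described were called, with 78 genes (2.39%) at an unadjusted p under 0.05 and 0 to 1 gene called under the alternatives. In endothelial-like cells 0% of 4243 genes were called, with 82 (1.93%) at an unadjusted p under 0.05, and 0 to 62 were called under the alternatives, the highest without HFD3. In B-cell-like, T-cell-like and monocyte-derived or dendritic-like cells, where 0% were also called, 3.81%, 3.37% and 3.37% of genes had an unadjusted p under 0.05 and 0 to 1 gene was called under the alternatives, and 0 of 3, 0 of 2 and 0 of 5 of the genes described were called. The precision was limited, since in simulated data for endothelial-like cells 59% of genes shifted by 2 were called.

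In Kupffer-like cells the levels of Axl, Timd4, Cd5l and Mertk given above overlapped between diets. Of the 5 genes tested 0 had diets that did not overlap, against 6.79% of all genes. Axl was at 7.62 ± 0.95 in ND and 6.96 ± 1.38 in HFD mice (SD, n = 3 each), a difference of -0.67 with a 95% interval of -2.26 to 0.92. Cd5l differed by -0.80 (-2.38 to 0.77), Mertk by -0.42 (-1.51 to 0.68) and Timd4 by -0.08 (-2.12 to 1.96), with limma intervals. In each case HFD2 was the lowest mouse. Without HFD2 the differences of Axl, Cd5l, Mertk and Timd4 were 0.08, 0.15, 0.03 and 1.15, so their negative sign rested on that mouse. In cells that passed the check on defining transcripts they were -0.21, -0.02, -0.34 and 0.16. The intervals allow changes of over 1 on the log2 scale in either direction for Timd4.

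In endothelial-like cells Gas6 was at 5.11 ± 0.24 in ND and 4.19 ± 0.79 in HFD mice (SD, n = 3 each). The difference of -0.92 had a 95% interval of -1.91 to 0.06 and an unadjusted p of 0.0642 in limma (adjusted p = 0.999), and the exact permutation p was 0.2. HFD2 and HFD3 lay below the ND mice and HFD1 lay between them, so that 0 of 6 genes tested had diets that did not overlap, against 5.26% of all genes. In the cells that passed the check on defining transcripts the difference was -1.15 and the diets did not overlap, as was so for 7.65% of all genes tested in those cells. The mean zonation score of endothelial-like cells was 0.14, -0.11 and 0.17 in ND1 to ND3 and -0.01, -0.10 and -0.17 in HFD1 to HFD3, and its part in the Gas6 difference was not tested. Scores were below 0 in HFD1, HFD2, HFD3 and ND2 and above 0 in ND1 and ND3.

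Mfge8 in endothelial-like cells went the other way, at 2.79 ± 0.41 in ND and 3.77 ± 0.85 in HFD mice. The difference was 0.98 (95% interval -0.05 to 2.01, unadjusted p = 0.0599 and adjusted p = 0.999 in limma, exact permutation p = 0.2), and the diets overlapped through HFD2 and ND3. Mertk differed by -0.25 (-1.45 to 0.96) and Pros1 by 0.03 (-1.09 to 1.16). Cd5l differed by -0.46 (-2.64 to 1.73). Without HFD3 the Cd5l difference was -2.07 and was called (adjusted p = 0.00353 in limma), 1 of 6 genes described and 62 of all 4047 genes tested. HFD3 was the mouse in which 21 of 50 endothelial-like cells carried Kupffer cell transcripts, and its Cd5l level of 7.18 was 5.58 in the cells that passed the check. The difference between diets was not shown to differ between Kupffer-like and endothelial-like cells for any of the 7 genes: 0% of 4717 genes were called (2.57% at an unadjusted p under 0.05), and the differences of differences ranged from -0.88 for Mfge8 to 0.70 for Gas6.

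The largest diet difference among the 7 genes was that of Axl in monocyte-derived or dendritic-like cells, a comparison added after the data were seen. The level was 0.77, 1.14 and 3.12 in ND1 to ND3 and 5.11, 5.62 and 2.96 in HFD1 to HFD3. Of the cells of a mouse, 0 of 7, 1 of 7 and 2 of 7 had Axl at 10 RPKM or more in the ND mice and 6 of 9, 3 of 5 and 1 of 6 in the HFD mice. HFD3 fell just under ND3, so the diets overlapped. The difference was 2.89 ± 0.99 (SE, 95% interval 0.91 to 4.86) with an unadjusted p of 0.00487 in limma, an adjusted p of 0.999 and an exact permutation p of 0.2. In cells that passed the check it was 2.55. The interval with all cells rests mainly on the spread of other genes, which limma weighed with 59 degrees of freedom against 4 from the mice. Axl itself had an SD of 1.26 over the ND and 1.41 over the HFD mice. The class held 5 to 9 cells per mouse, and a change in its make-up of monocytes and dendritic cells and a change in level per cell type cannot be told apart. In the 5 genes tested in this class 0 had diets that did not overlap, against 7.24% of all genes. Mertk differed there by 0.82 (-1.11 to 2.76), and by 0.23 in the cells that passed the check.

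**Figure D5:**
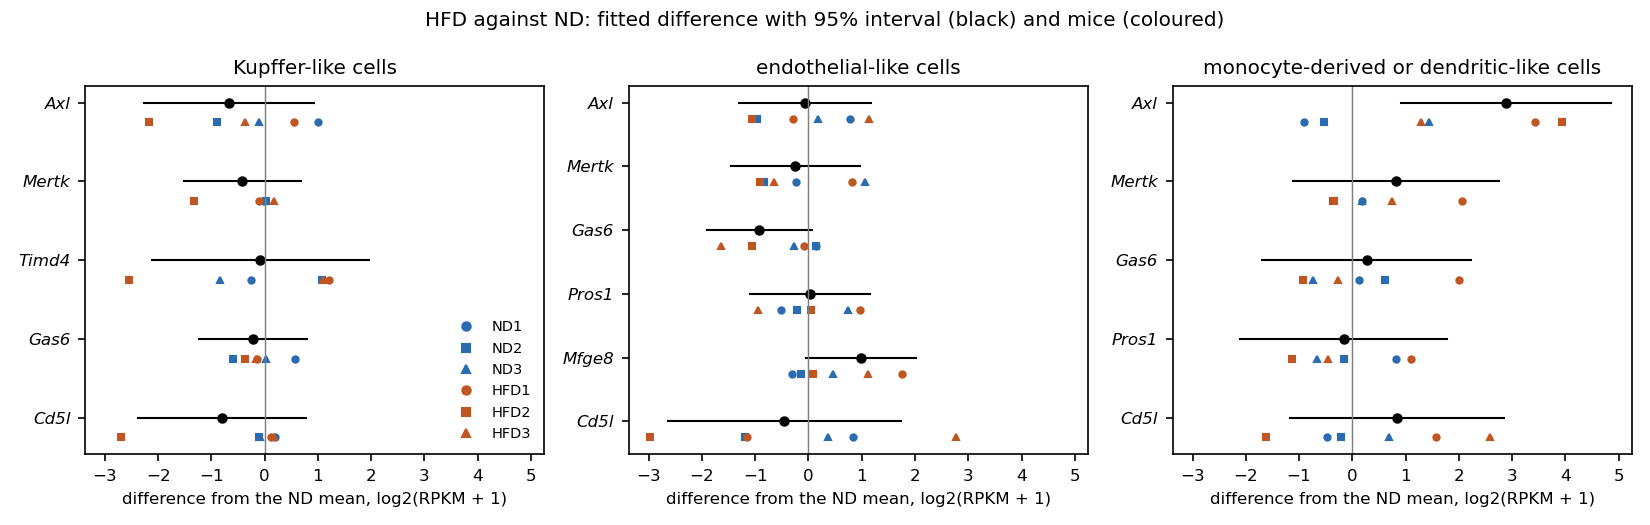
Difference between HFD and ND in mean log2(RPKM + 1) for the genes that passed the filter in 3 classes (black point and line, fitted difference with 95% limma interval), with each mouse below as its distance from the ND mean. Intervals include 0 except that of Axl in monocyte-derived or dendritic-like cells, 0.91 to 4.86, which was not called after adjustment over all genes. In that class the intervals rest mainly on the spread of other genes.

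In T-cell-like cells, where Gas6 was near the ratio of the endothelial transcripts, it was at 1.44, 0.81 and 1.24 in the ND mice and 0.69, 0.65 and 0.56 in the HFD mice. With all cells this was 1 of 35 comparisons of a gene between diets, 7 genes in 5 classes, and the only one in which the mice did not overlap (exact permutation p = 0.1), where 7.85% of all genes in T-cell-like and 9.8% in B-cell-like cells did not. Gas6 did not pass the filter there. In the cells that passed the check on defining transcripts 3 of the 35 did not overlap, Gas6 in T-cell-like cells (-0.56), Gas6 in endothelial-like cells (-1.15) and Mfge8 in B-cell-like cells (0.30). In those cells the mice did not overlap for 7.84% of all genes tested in T-cell-like, 7.65% in endothelial-like, 9.99% in B-cell-like, 7.53% in Kupffer-like and 9.3% in monocyte-derived or dendritic-like cells.

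Other genes of the process were taken from a list of 76, of which 71 were in the table. Between Kupffer-like and endothelial-like cells 53 passed the filter, 26 were higher and 13 lower in Kupffer-like cells, and 14 were not called, with a median difference of 0.52 against -0.29 for all genes, of which 17.6% were higher and 36.8% lower. Some of the listed genes, such as the C1q chains and Stab2, also served as markers to name the classes. The largest differences were those of C1qa, C1qb and C1qc, the chains of the opsonin C1q, at 7.71, 7.62 and 7.61. The largest in the other direction were the scavenger receptors Stab1 (-5.50) and Stab2 (-4.58), which also bind phosphatidylserine, and Mylip (-2.95), a target of the liver X receptors. Of the other bridging and opsonic proteins 6 of 7 were higher in Kupffer-like cells and 0 lower, 3 of the 6 being the C1q chains that also named the class, whereas the 3 bridges among the genes described, Gas6, Pros1 and Mfge8, were lower. A list gene could pass the filter through the class where it was high, so these counts are a description.

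Against monocyte-derived or dendritic-like cells 10 of 56 list genes were higher and 20 lower in Kupffer-like cells (median difference -0.65, and -0.89 for all genes), where 3.82% of all genes were higher and 35.3% lower, so the share of lower genes was near that of all genes. The C1q chains led again (8.27 to 8.58), and Anxa1 (-3.66), Lgals3 (-3.49), both opsonic or bridging proteins, and Elmo2 (-2.84), of the engulfment machinery, were lowest. Of 12 engulfment genes 7 were lower and 0 higher, with a median difference of -1.26. These directions depended on the scale. When logarithms were taken after averaging RPKM, a setting applied to the list after its values were seen, 5 of the 12 engulfment genes lay above 0 and 7 below, and none was called (median -0.31, and -0.22 for all genes). Of the 56 list genes 10 were then higher and 1 lower (median 0.24), where 292 of all 5782 genes were higher and 173 lower. Between endothelial-like and B-cell-like cells 25 of 48 were higher and 7 lower, beside 33.3% and 19.5% of all genes, led by Stab1 (5.86), Stab2 (5.74, also a marker of the class) and the lipid scavenger receptor Cd36 (3.75), with Rac2 (-3.94), Dock2 (-2.09) and Ucp2 (-1.53) lowest. Between diets 0 list genes were called in any class. Vkorc1, which recycles the vitamin K that Gas6 and Pros1 need for their carboxylation, was at 2.46 ± 0.88 in endothelial-like and 2.53 ± 0.92 in Kupffer-like cells, with a difference of 0.07 ± 0.22 (SE, adjusted p from limma of 0.798).

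The genes most like each of the 7 were those of highest Pearson correlation over 47 class-by-mouse means of 10 classes, among 8520 genes. They were Clec4f, C1qb and C1qc for Cd5l (0.99 each), Epb4.1l3, Il18bp and Slc7a8 for Timd4 (0.94 to 0.95) and Dmpk, Lpl and C6 for Axl (0.90 to 0.91). Those most like Gas6 were Bgn, Ces2g and Ehd3 (0.91 to 0.92), and those most like Pros1 were Eltd1, Npr1 and Tmem2 (0.92 to 0.94). Mertk was closest to Mrc1, Cdh5 and Dab2 (0.90 to 0.91), with Mrc1 and Dab2 known in endothelial and macrophage cells alike. Mfge8 had the weakest likeness, to Mxra8, Adamts7 and Mmrn2 (0.83 to 0.85). Among the 7, Timd4 and Cd5l were at 0.93, Mertk and Pros1 at 0.81 and Axl and Mertk at 0.37. The means share libraries and depth, so these are descriptions without a test.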

How the data were processed

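The deposited table held RPKM values of 14915 genes in 1470 cells. The authors used STAR v2.4.2 and the mm10 genome to align the Smart-seq2 reads, computed RPKM from uniquely mapped reads with rpkmforgenes, kept cells with at least 50000 reads and 1000 genes and at most 25% mitochondrial expression, and removed doublets with Scrublet, so no doublet caller was run here. RPKM is not a count, so reads per cell were estimated from the steps of low values, of which a median of 87.8% were whole multiples (tolerance 0.05) against 13.2% with shuffled lengths, and in simulated data the estimate was within 2% in 17 of 20 cells. Tests used log2(RPKM + 1) and no count model. No cell pair had identical values, and 0 columns lacked a sample.

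Cells were grouped by spectral clustering without the 7 genes and the pathway list, and clusters were named from marker genes, by a rule set after the clusters were seen, so classes may differ from those of the study. The check on defining transcripts required a mean log2(RPKM + 1) of 3 such transcripts of the class above 5 and of the other 3 main classes at most 7, and left out 147 cells. Class means per mouse with at least 5 cells entered limma 3.58.1 (R 4.3.3), with genes at a mean of at least 1, the mouse as a block between classes and no block between diets. Benjamini-Hochberg adjustment ran over all genes tested. Exact two-sided sign flips over 6 mice cannot go below 0.0312, and exact permutations of 3 against 3 not below 0.1. In simulated data for 4243 genes, 100% of 200 genes shifted by 2 were called between classes (4.31% of calls were not shifted) and 59% between diets in endothelial-like cells (4.07%). Python 3.11.15, numpy 2.4.6, pandas 2.3.3, scipy 1.17.1, scikit-learn 1.9.0 and matplotlib 3.10.9 were used.

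Named were the 7 genes, the 3 largest called differences of the pathway list in each direction, and the 3 genes most correlated with each of the 7. The 7 genes and the lists were chosen with earlier results of these data known. All 7 matched the RefSeq windows by symbol. Alternatives covered the pseudocount (0.1), the order of averaging and logarithm, the filter, cells with at least 2000 genes, rescaling, the variance model, the clustering, the blocks and each mouse left out. The check on defining transcripts and the diet comparison in monocyte-derived or dendritic-like cells were added after the data were seen.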

Additional observations from a re-analysis of the deposited data

Results flagged for a closer look

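Of 56 sets of 6 mice examined, 8 had a mouse set apart from the others by more than 0.625 of the range, the limit of Dixon's test at 6 samples. Chance flags about 1 in 20 such sets.

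In Kupffer-like cells, HFD2 had the lowest level of Mertk (0.77, others 1.98 to 2.27, gap 0.81 of the range) and of Cd5l (9.11, others 11.71 to 12.01, gap 0.90). In the 27 of its 35 cells that passed the check on defining transcripts, Mertk was at 0.93 and Cd5l at 11.18. ND2 had the lowest Kupffer-like level of Pros1 (0.45, others 0.79 to 0.90, gap 0.76).

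In endothelial-like cells, HFD3 had the highest level of Timd4 (2.01, others 0.12 to 0.72, gap 0.68), which was 0.82 in the cells that passed the check. The same mouse had the highest Timd4 difference between endothelial-like and B-cell-like cells (0.99, others -0.25 to 0.13, gap 0.69).

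Mfge8 was set apart in 3 sets. In B-cell-like cells ND3 was lowest (0.48, others 0.95 to 1.20, gap 0.65). In monocyte-derived or dendritic-like cells HFD1 was highest (3.33, others 0.00 to 0.88, gap 0.74), and its Kupffer-like less monocyte-derived or dendritic-like difference was lowest (-2.50, others 0.03 to 1.02, gap 0.72). The 4 cells of HFD1 behind the last 2 values failed the check on defining transcripts.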

How the results depend on the processing

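The counts of called genes among the 7 kept within 1.5 times of the reported count in 99.4% of alternatives. The exception was HFD against ND in endothelial-like cells without HFD3, where 1 gene, Cd5l, was called, and leaving out each mouse in turn gave 0 to 1. Of the alternative values of the class differences 94.4% kept their direction and their side of the threshold, 11 reversed, 4 passed the threshold and 4 no longer did. Of 490 for the diet differences 422 kept both, 67 reversed and 1 passed. The cause of the reversals was not tested.

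With RPKM averaged before the logarithm, the Mertk difference between Kupffer-like and endothelial-like cells was no longer called (-0.49), Mertk against monocyte-derived or dendritic-like cells was called (3.57), Axl there was not (3.48), Pros1 there reversed (1.35), and Axl between endothelial-like and B-cell-like cells was called (1.72). Axl in Kupffer-like against monocyte-derived or dendritic-like cells was also not called without the filter and with each gene's own spread (4.17 in both). Mertk there was called with 2000 variable genes (1.08) and in cells with defining transcripts (1.19). Other reversed class differences were Gas6 in Kupffer-like against monocyte-derived or dendritic-like cells (-0.13 with at least 2000 genes per cell, -0.001 rescaled, and -0.13 to 0.45 without single mice), Cd5l in endothelial-like against B-cell-like cells (-0.41 by marker score, -0.27 with defining transcripts, -0.02 to 0.43 without single mice) and Axl there (-0.08 by marker score). All genes called in Kupffer-like against monocyte-derived or dendritic-like cells were 2264 (9.76% of them higher), but 465 with RPKM averaged first (62.8% higher), 811 without the filter (23.8%), and 986 when spreads were not moderated (18.8%).

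None of the reversed diet differences was called in its reported fit. With RPKM averaged first, the reversed values were Axl 0.15 and Timd4 0.02 in Kupffer-like cells, Mertk 0.09, Axl 0.21 and Pros1 -0.22 in endothelial-like cells, Cd5l 0.22 in T-cell-like cells, and 1.52 for Cd5l and 0.69 for Timd4 in the difference between both classes. By marker score they were Gas6 0.10 and Timd4 0.01 in Kupffer-like, Pros1 -0.32 in endothelial-like, Axl -0.07 in B-cell-like, Cd5l 0.10 in T-cell-like and Pros1 0.15 in monocyte-derived or dendritic-like cells, and Cd5l 0.09 and Timd4 0.02 between both classes. With 10 principal components they were Timd4 0.10 in Kupffer-like, Axl 0.12 and Pros1 -0.07 in endothelial-like, Cd5l 0.007 in T-cell-like and Pros1 0.22 in monocyte-derived or dendritic-like cells. That setting also left HFD2 out of the last class for want of 5 cells. With 2000 variable genes they were Axl 0.08 and Pros1 -0.17 in endothelial-like cells. With at least 2000 genes per cell, which also left HFD2 out of Kupffer-like, B-cell-like and monocyte-derived or dendritic-like cells for want of 5 cells, they were Timd4 0.94 in Kupffer-like, Mertk 0.14 in endothelial-like, Cd5l 0.23 in B-cell-like and Pros1 0.26 in monocyte-derived or dendritic-like cells, and Timd4 0.24 between both classes. With defining transcripts they were Timd4 0.16 in Kupffer-like and Pros1 -0.16 in endothelial-like cells, and Cd5l 0.52 and Timd4 0.12 between both classes. Axl in B-cell-like cells was -0.09 with a pseudocount of 0.1 and -0.01 rescaled, and Gas6 in monocyte-derived or dendritic-like cells was -0.28 with that pseudocount.

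Without single mice, the diet differences that reversed ranged in Kupffer-like cells from -0.72 to 0.03 for Mertk, -1.29 to 0.15 for Cd5l, -1.28 to 0.08 for Axl and -0.72 to 1.15 for Timd4. In endothelial-like cells they ranged from -0.78 to 0.29 for Mertk, -2.07 to 0.81 for Cd5l, -0.68 to 0.43 for Axl and -0.44 to 0.52 for Pros1. In B-cell-like cells the ranges were -1.55 to 0.22 for Cd5l and -0.39 to 0.35 for Axl, and in T-cell-like cells -0.85 to 0.67 and -0.53 to 0.007. In monocyte-derived or dendritic-like cells they were -0.03 to 2.08 for Cd5l, -0.10 to 0.87 for Gas6 and -0.50 to 0.32 for Pros1. Between both classes they were -0.71 to 0.26 for Mertk, -1.16 to 0.78 for Cd5l, -1.22 to 0.56 for Timd4 and -0.46 to 0.53 for Pros1.

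The replicate numbers 1 to 3 are shared by the diets. With the number as a replicate block, 0 of the 7 genes were called in each diet comparison. Deviations of mice of the same number correlated at -0.25 to 0.2 over genes. They were positive for each number in Kupffer-like and B-cell-like cells and mixed in sign in endothelial-like and T-cell-like cells. With the block, more genes had an unadjusted p under 0.05 in B-cell-like, T-cell-like and monocyte-derived or dendritic-like cells. About as many did in Kupffer-like and endothelial-like cells, and fewer in the difference between both classes. Weak correlations from 3 mice per diet cannot decide whether the numbers paired the mice. Depth limits the low levels, since the worth of 1 read exceeds the pseudocount of 1 RPKM, and 3 mice per diet limit the diet comparisons.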
